A study of Mus musculus with 6 samples.

Results

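Genes that license and carry out DNA replication were followed in D2.OR mouse breast cancer cells with and without the long noncoding RNA BORG, and in BORG-expressing cells with a guide RNA against Trim28. The 54 genes were listed by symbol, with earlier results of these data known. They were sorted into 6 steps: origin licensing (9 genes), helicase (14), polymerases (10), clamp (11), nucleotides (5) and chromatin assembly (5). Each gene was read from the transcript cluster, the set of probes that the array treats as 1 transcript, that carried its symbol alone, and from the brightest such cluster where there were several. This gave 53 of the 54 genes, among 22180 genes named in this way in all. Rfc4, a subunit of the clamp loader, shared its cluster with another gene and was not analysed. By mean signal over the arrays the 53 genes lay between percentiles 55.0 and 95.2 of all transcript clusters, so all of them were in the brighter part of the array.

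The 6 samples were Affymetrix Mouse Gene 2.0 ST arrays of D2.OR cells grown for 7 days in 3D-culture on Cultrex, a reconstituted basement membrane. D2.OR is a line of the D2.HAN series, which the study traces to a premalignant mammary nodule, and its cells tend to stay latent after they have disseminated. The parental group carried an empty vector, the BORG group expressed BORG, and the BORG/sgTRIM28 group expressed BORG and had its Trim28 gene targeted by CRISPR, with 2 arrays in each of the 3 groups. Per the study's methods, BORG was introduced by stable transfection under G418, Cas9 and the guide by lentivirus under puromycin, and the D2.OR cells also carried firefly luciferase. The sample labels do not say whether a line was a clone or a pool, or whether the parental and BORG groups had received Cas9 or a control guide, although the study heads both with a non-targeting guide (sgNT) in a display of these arrays. They call the 2 arrays of a group biological replicates without naming separate cultures. The limma p-values weigh a difference against the spread between arrays of a group, pooled over the 3 groups and moderated over all clusters. Whether it is a spread between cultures is not known. Values are log2 signals as deposited, and a difference of 1 on this scale is a 2-fold change.

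Array medians ran from 5.18 to 5.24. Trim28, the target of the guide, had signals of 10.50 and 10.68 in parental, 9.88 and 9.96 in BORG and 9.49 and 9.53 in BORG/sgTRIM28 cells. Against parental cells BORG cells had less Trim28 signal (-0.67, limma adjusted p = 0.0271), where no guide against it is labelled, and the difference between BORG and BORG/sgTRIM28 cells did not pass (limma adjusted p = 0.0911). BORG/sgTRIM28 cells differed from parental cells by -1.07, which did not pass either (limma adjusted p = 0.0580). The study reports an insertion that shifts the reading frame of Trim28, and the RNA signal does not measure the protein. No cluster was matched to BORG itself. Of the 5 epithelial markers, Krt8 (9.55 to 11.09) and Krt18 (9.74 to 11.37) were bright and higher in BORG than in parental cells (1.31 and 1.49), whereas Krt19 (4.49 to 4.96) and Epcam (4.68 to 5.01) lay below the array medians and did not pass, nor did Cdh1. The list averaged 7.01 to 7.04 on parental, 7.64 to 7.65 on BORG and 7.21 to 7.32 on BORG/sgTRIM28 arrays. Markers of other cell types were uneven. Among fibroblast markers Dcn (3.53 to 3.92) and Lum (3.02 to 3.53) were dim, while Pdgfra (10.93 to 12.29) changed by -1.25 in BORG against parental cells and Col1a1 and Pdgfrb were higher by 1.18 and 1.13, so that the mean of the 5 moved little (7.12 to 7.13, 7.15 to 7.28 and 6.82 to 6.94 in the same order). Of 5 leukocyte markers measured of 6, Ptprc (3.39 to 3.64) was dim and Cd68 (8.04 to 8.37) bright, and the list averaged 4.97 to 5.13 over all arrays. Of 5 endothelial markers Emcn (3.25 to 3.41) was dim and Cdh5 reached 7.16, and Adipoq (3.75 to 4.0) was dim among 4 adipocyte markers, with list means between 4.68 and 4.95. The part of these differences in the replication results was not tested.

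Before a cell copies its DNA, the origin recognition complex, Cdc6 and Cdt1 load the ring-shaped Mcm2-7 complex onto origins, a step called licensing that geminin holds in check. Kinases then turn the ring into an active helicase together with Cdc45 and the GINS complex, after which primase and DNA polymerases copy the strands, a sliding clamp keeps them on the template, and assembly factors rebuild chromatin behind the fork. Many of these genes are transcribed as cells pass from G1 into S phase, with E2F transcription factors among their regulators, and they are widely read as markers of proliferating tumor cells.

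The promoters printed here belong to a licensing gene and to 3 helicase subunits with large changes whose windows held E2F-type letters, and to Tk1, which moved the other way. Each runs from 250 bases before to 50 after a transcript start that RefSeq gives on GRCm38.p6, 5′ to 3′ on the gene's strand. The Cdc6 window lies inside the span of its gene, which begins at base 98907709, so the start used is an internal one. Capitals mark matches to E2F-type letters (TTTCCCGC, TTTCGCGC, TTTGCCGC or TTTGGCGC, on either strand).
Cdc6 (chr11:98907901-98908200, plus strand): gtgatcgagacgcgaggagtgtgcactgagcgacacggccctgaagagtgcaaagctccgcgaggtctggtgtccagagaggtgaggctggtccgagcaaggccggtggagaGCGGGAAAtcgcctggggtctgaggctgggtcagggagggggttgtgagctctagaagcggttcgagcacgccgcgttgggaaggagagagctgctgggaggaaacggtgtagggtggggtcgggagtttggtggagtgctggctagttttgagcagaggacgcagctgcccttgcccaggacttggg
Mcm3 (chr1:20820263-20820562, minus strand): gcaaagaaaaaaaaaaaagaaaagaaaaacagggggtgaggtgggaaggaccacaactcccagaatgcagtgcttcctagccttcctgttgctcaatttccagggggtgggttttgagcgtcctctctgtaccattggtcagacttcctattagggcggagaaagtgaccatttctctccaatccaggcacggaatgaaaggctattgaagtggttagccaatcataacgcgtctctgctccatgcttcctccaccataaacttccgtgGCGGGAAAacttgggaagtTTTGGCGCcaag
Mcm5 (chr8:75109259-75109558, plus strand): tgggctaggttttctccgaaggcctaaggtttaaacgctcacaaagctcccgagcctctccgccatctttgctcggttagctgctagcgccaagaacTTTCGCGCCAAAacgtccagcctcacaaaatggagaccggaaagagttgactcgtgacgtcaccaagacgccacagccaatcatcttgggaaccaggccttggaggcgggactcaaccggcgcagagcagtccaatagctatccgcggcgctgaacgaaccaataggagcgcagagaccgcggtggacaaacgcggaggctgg
Mcm6 (chr1:128359656-128359955, minus strand): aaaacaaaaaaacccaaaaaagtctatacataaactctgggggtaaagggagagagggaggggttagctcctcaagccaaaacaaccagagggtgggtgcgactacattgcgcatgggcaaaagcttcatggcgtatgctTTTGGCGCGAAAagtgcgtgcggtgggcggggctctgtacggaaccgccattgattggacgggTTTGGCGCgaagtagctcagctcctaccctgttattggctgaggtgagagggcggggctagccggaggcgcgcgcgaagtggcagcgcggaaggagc
Tk1 (chr11:117825965-117826264, minus strand): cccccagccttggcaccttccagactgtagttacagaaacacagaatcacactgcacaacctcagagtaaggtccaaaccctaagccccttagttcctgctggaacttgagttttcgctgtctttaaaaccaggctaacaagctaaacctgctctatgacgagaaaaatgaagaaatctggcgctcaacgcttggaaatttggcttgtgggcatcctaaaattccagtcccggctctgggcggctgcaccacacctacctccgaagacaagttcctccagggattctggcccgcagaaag
Counted from the annotated start as base 1, the Cdc6 match began at -138, the Mcm3 matches at 20 and 39, the overlapping Mcm5 matches at -153 and -149, and the Mcm6 matches at -110, -106 and -47, the former pair overlapping. Mcm7 also held matches, beginning at -165 and 17, in a window that is not printed, and its other window held 0. The Tk1 window held none of these letters, and neither did those of Mcm2, Mcm10, Prim1 and Slbp. Such an absence says nothing about the factors that bind there.

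RefSeq promoters were found for 46 of the 54 listed genes. Of these, 17 (37.0%) held at least 1 of the E2F-type sequences, against 704 of 27025 genes (2.60%) over all promoters of the same length. Among genes called lower in BORG against parental cells by the test described next, 8 of 22 held a match (36.4%), and among the other measured genes 9 of 23 did (39.1%). The letters CCAAT, a box bound by NF-Y, occurred on either strand for 16 of 22 (72.7%) and 11 of 23 (47.8%), against 41.1% of all genes. A match is a description of the sequence and not a site of binding.

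In BORG-expressing cells the mean signal was below that of parental cells for 46 of the 53 replication genes, and 26 of these passed the test. Besides the 26 lower genes, 1 was higher and 26 did not pass, at an adjusted p under 0.05 from limma with Benjamini-Hochberg adjustment over all 41345 transcript clusters. Over all clusters 2.98% were lower and 4.12% higher by the same rule, 7.09% in all. The BORG and parental arrays did not overlap for 42 members on the lower and 4 on the higher side, against 28.8% and 21.7% of all clusters. The members are brighter than most clusters, and in a fit of the 20672 clusters above the median signal 33 members were lower and 3 higher, against 10.5% and 11.2% of the clusters in that fit. The median change of the 53 genes was -0.68 on the log2 scale, or 0.623-fold, and that of all clusters -0.03. Sizes among the genes called lower ran from -0.57 for Gins4 to -1.93 for Mcm4. When 2-fold or more was required together with p under 0.05 before adjustment, 15 genes were lower and 0 higher, against 1.01% and 2.3% of all clusters. In bulk cultures, a different share of cells in a phase of the cycle and a different amount of RNA per cell cannot be told apart. The methods' t-test gave 28 members at p under 0.05 before adjustment, against 14.9% of clusters, and 0 after it. Without parental replicate 1 or 2 the limma count fell from 27 to 8 or 6. The 6 genes called in every fit other than the methods' t-test were Cdc6, Mcm2, Mcm3, Mcm7, Mcm10 and Slbp.

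The mean signal of BORG cells was also below that of BORG/sgTRIM28 cells, in which Trim28 was targeted, for 46 of the 53 genes. Of 53 genes, 24 were lower, 2 were higher and 27 did not pass in limma, with 4.24% of all clusters lower and 5.31% higher (9.55% in all). The arrays did not overlap for 43 members on the lower and 5 on the higher side, against 31.9% and 20.5% of clusters. Of the clusters called in this comparison 55.6% were higher, and with median-centred arrays 66.1% were. Under that centring 23 members were lower and 2 higher, against 1252 and 2446 of 41345 clusters. In the fit of brighter clusters 29 members were lower and 2 higher, against 12.8% and 13.3% of its clusters. The median change was -0.61 (0.654-fold) for the replication genes and -0.05 for all clusters. Under the 2-fold rule 14 were lower and 1, Tk1, was higher, against 1.09% and 2.86% of all clusters. The methods' t-test gave 28 members before adjustment, against 15.5% of clusters, and 0 after it. Without BORG/sgTRIM28 replicate 1 or 2 the limma calls fell from 26 to 12 or 10. Both comparisons share the BORG arrays, so their values are given side by side and are not independent of each other.

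**Figure D1:**
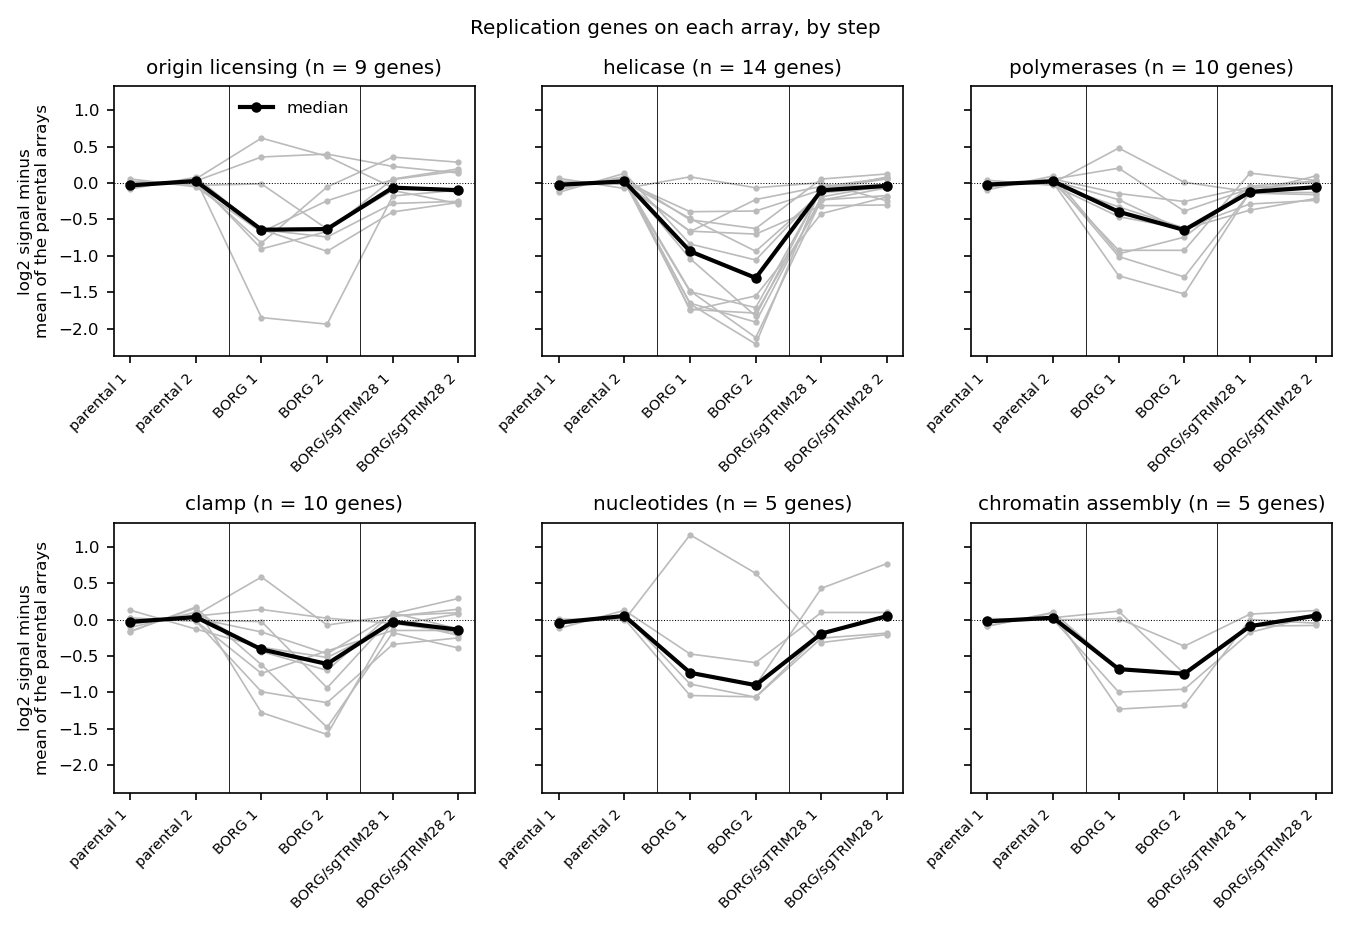
Log2 signal of each replication gene on the 6 arrays, with the mean of its parental arrays subtracted (y axis, log2 units), in 6 panels by step. Grey lines join the values of 1 gene, the black line is the median of the step, and vertical lines separate the groups, whose arrays have no order. The black line dips on the BORG arrays in each panel, and in the nucleotide panel 1 gene, Tk1, rises there.

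Relative to the parental mean of each gene, the median over the 53 genes was -0.66 and -0.72 in the BORG pair of arrays and -0.09 and -0.05 in the BORG/sgTRIM28 pair. Both BORG arrays lay below all other 4 arrays for 42 of 53 genes, an arrangement seen for 19.8% of all clusters. They lay above all others for 4 genes (Orc3, Orc5, Pole2 and Tk1), against 13.9% of clusters. The BORG arrays differed more from each other than those of the other groups did. The median gap between the 2 arrays of a group was 0.25 for BORG, 0.08 for parental and 0.10 for BORG/sgTRIM28 cells. Taken over all clusters it was 0.174, 0.132 and 0.143 in the same order. Replicate 1 was the higher of its pair for 41 of the 53 genes in BORG, 13 in parental and 13 in BORG/sgTRIM28 cells. A gap above 0.5 was found for 11 genes on the BORG arrays (Orc2, Gmnn, Mcm4, Mcm5, Mcm6, Pold1, Rpa3, Fen1, Lig1, Tk1 and Dnmt1) and for 0 genes in the other groups. The share of all clusters with such a gap was not counted. Without BORG replicate 1, 10 of the 27 genes called against parental cells lost their call, and without replicate 2 it was 6.

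**Figure D2:**
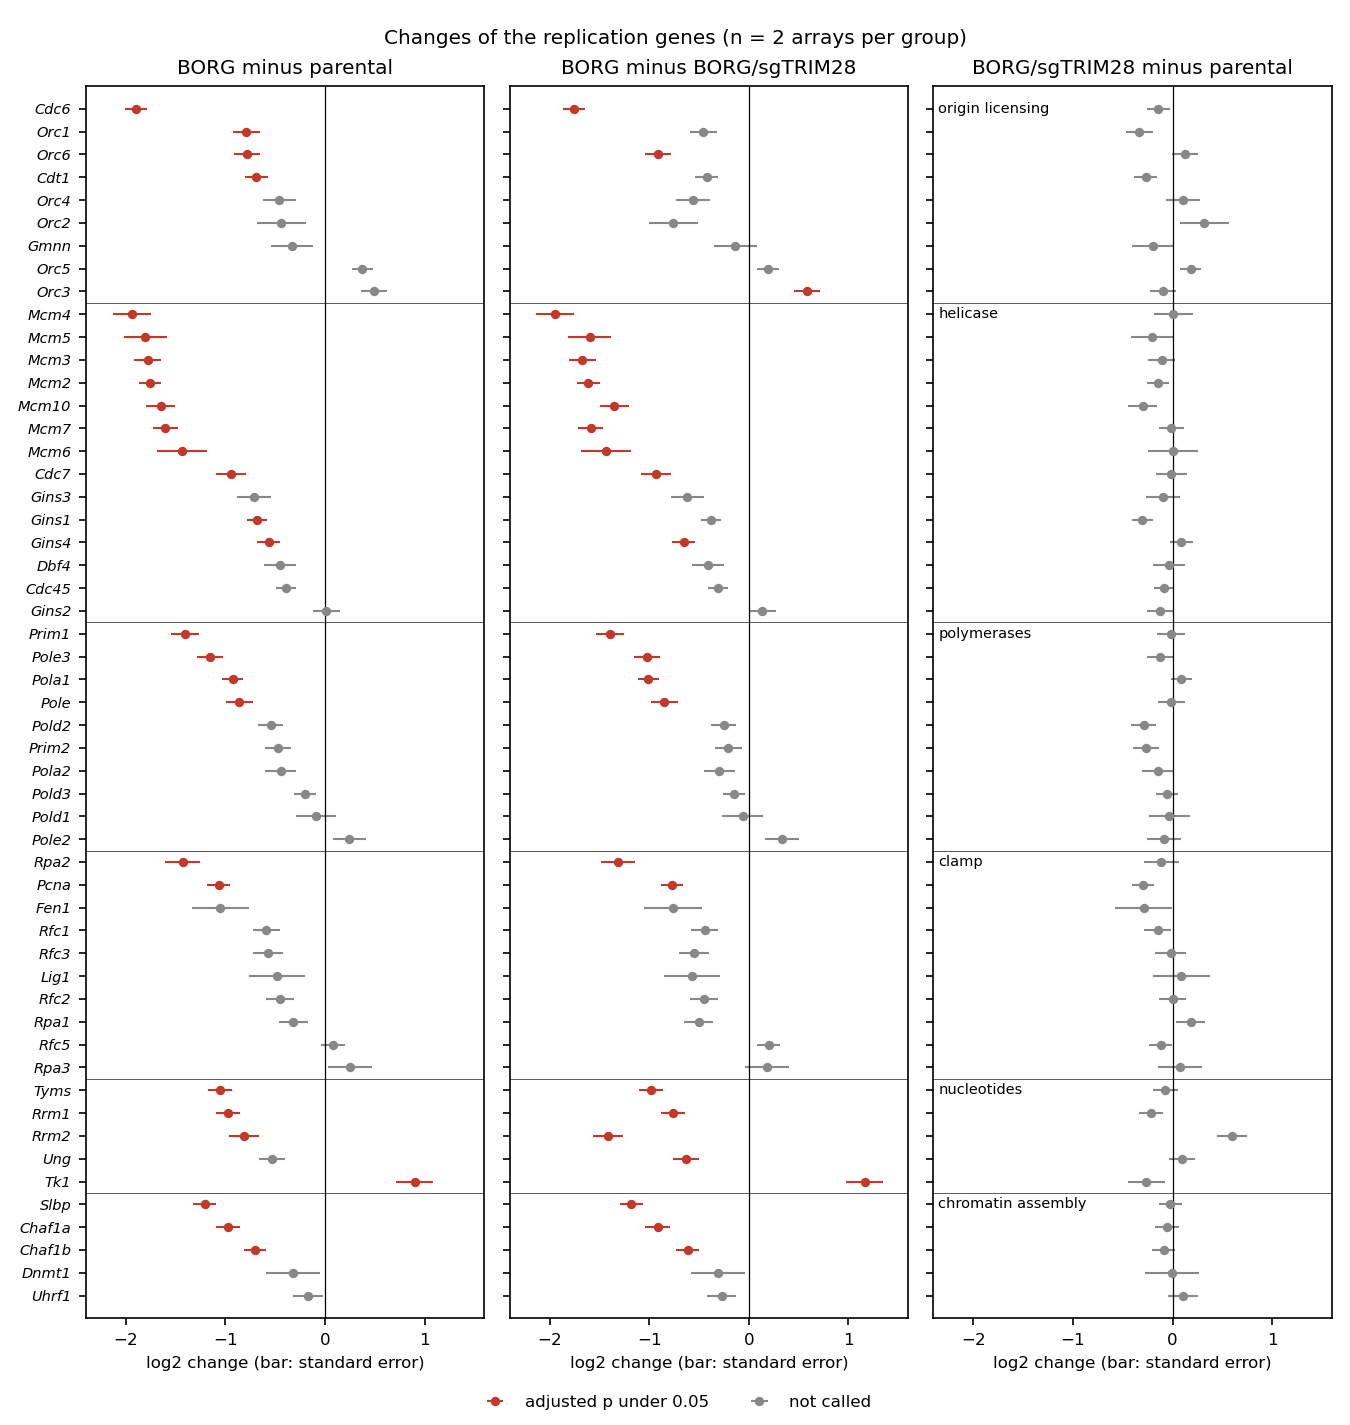
Log2 change (x axis) of each of the 53 replication genes (rows, by step) in the 3 comparisons, with bars of 1 standard error from limma and n = 2 arrays per group. Red points passed an adjusted p of 0.05. Of the points below -1, helicase genes hold 7 of 15 in the left panel and 7 of 14 in the middle panel, and the right panel holds 0 red points.

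Of the 9 genes of origin licensing, 4 were called lower and 0 higher in BORG against parental cells (median -0.46), and 2 were lower and 1 higher than in BORG/sgTRIM28 cells (median -0.46). By the same rule 2.98% of all clusters were lower and 4.12% higher, then 4.24% and 5.31%. Cdc6, the ATPase that brings the helicase to the origin and whose promoter is printed above, read 7.75 and 7.86 on parental, 5.96 and 5.87 on BORG and 7.63 and 7.71 on BORG/sgTRIM28 arrays. The BORG arrays were far below the other 4, which lay within a narrow band. The change was -1.89 against parental cells (standard error, SE, 0.11, limma adjusted p = 0.00118), a signal 3.72-fold lower, and -1.75 against BORG/sgTRIM28 cells (limma adjusted p = 0.00100). Cdt1, the partner of Cdc6 in loading, read 8.59 and 8.75, then 8.03 and 7.93, then 8.39 and 8.42 in the same order of groups. It was lower by -0.69 against parental cells (limma adjusted p = 0.0236), while the difference of -0.42 from BORG/sgTRIM28 cells did not pass (limma adjusted p = 0.0789). Geminin (Gmnn), the inhibitor of Cdt1, had a change of -0.33 that did not pass, with 5.99 and 5.37 on the BORG arrays against 6.03 and 5.97 on the parental arrays.

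The 6 subunits of the origin recognition complex did not move together. Orc1, the ATPase subunit whose level rises and falls with the cell cycle in mammals, read 6.34 and 6.37 on parental, 5.72 and 5.42 on BORG and 5.96 and 6.09 on BORG/sgTRIM28 arrays. Its change was -0.79 against parental cells (limma adjusted p = 0.0275) and -0.46 against BORG/sgTRIM28 cells (limma adjusted p = 0.105). Orc6, the smallest subunit, read 9.5 and 9.59, then 8.64 and 8.88, then 9.60 and 9.74, and passed in both comparisons, at -0.78 and -0.91. Orc3, a core subunit of the complex, went the opposite way, with 7.22 and 7.34 on parental, 7.90 and 7.65 on BORG and 7.22 and 7.16 on BORG/sgTRIM28 arrays. Its change of 0.59 against BORG/sgTRIM28 cells passed (SE 0.13, limma adjusted p = 0.0453) and that of 0.49 against parental cells did not (limma adjusted p = 0.0844). The Orc3 call was lost without either array of the BORG/sgTRIM28 group or BORG replicate 1, and also under the replicate block and with only the 4 arrays compared. Leaving out either parental array gave the same fit as those 4 arrays and is not a separate loss. Orc5 had a change of 0.38 against parental cells with arrays that did not overlap, but it did not pass (limma adjusted p = 0.101). Orc2 and Orc4, at -0.44 and -0.46, did not pass either, and the BORG arrays of Orc2 read 7.56 and 8.33.

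Of the 14 genes of the helicase step, the longest list, 10 were lower and 0 higher against parental cells (median -1.19) and 9 were lower and 0 higher against BORG/sgTRIM28 cells (median -1.14). Shares of all clusters were 2.98% lower and 4.12% higher, then 4.24% and 5.31%. All 6 subunits of the Mcm2-7 ring were lower in both comparisons, with changes from -1.93 to -1.43 against parental cells and from -1.94 to -1.43 against BORG/sgTRIM28 cells. Mcm4 read 9.53 and 9.61 on parental, 7.91 and 7.36 on BORG and 9.52 and 9.64 on BORG/sgTRIM28 arrays. The parental and BORG/sgTRIM28 arrays overlapped, and both BORG arrays were lower by more than 1 log2 unit. Its change was -1.93 against parental cells (SE 0.19, limma adjusted p = 0.00521) and -1.94 against BORG/sgTRIM28 cells, 3.82-fold and 3.85-fold lower. Mcm2 read 9.60 and 9.65, then 7.89 and 7.84, then 9.39 and 9.56, the tightest BORG pair among the 6 subunits, with a change of -1.76 (SE 0.11, limma adjusted p = 0.00157). Mcm3 read 8.82 and 8.86, then 7.19 and 6.93, then 8.65 and 8.81, with changes of -1.78 and -1.67.

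Mcm5 read 8.74 and 8.82 on parental, 7.30 and 6.66 on BORG and 8.55 and 8.61 on BORG/sgTRIM28 arrays, so that its BORG arrays stood 0.64 apart and still below the rest. The change of Mcm5 was -1.80 against parental and -1.60 against BORG/sgTRIM28 cells (SE 0.21 in each). Mcm6, with the widest spread of the ring, read 7.57 and 6.78 on the BORG arrays and between 8.54 and 8.68 on the other 4, and passed at -1.43 in both comparisons (limma adjusted p = 0.0283 and 0.0239). Mcm7 was lower by -1.60 and -1.59. Mcm10, which acts when the loaded helicase is switched on, was lower by -1.65 against parental cells, a signal 3.14-fold lower, and by -1.35 against BORG/sgTRIM28 cells.

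Other factors that activate the ring had smaller changes, and not all of them passed. Cdc7, the kinase that phosphorylates Mcm subunits, was lower by -0.94 and -0.93, while its activator Dbf4, at -0.45 and -0.41, did not pass. Cdc45, a permanent part of the moving helicase, had changes of -0.39 (limma adjusted p = 0.0805) and -0.31, with BORG arrays at 6.92 and 6.93 below parental arrays at 7.30 and 7.33. Of the 4 GINS subunits, Gins1 (-0.68) and Gins4 (-0.57) were lower than in parental cells, Gins3 had -0.71 with a wider spread and missed the threshold (limma adjusted p = 0.0631), and Gins2 was at 0.01. Gins2 read 6.40 and 6.26 on parental and 6.42 and 6.27 on BORG arrays, which overlapped.

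**Figure D3:**
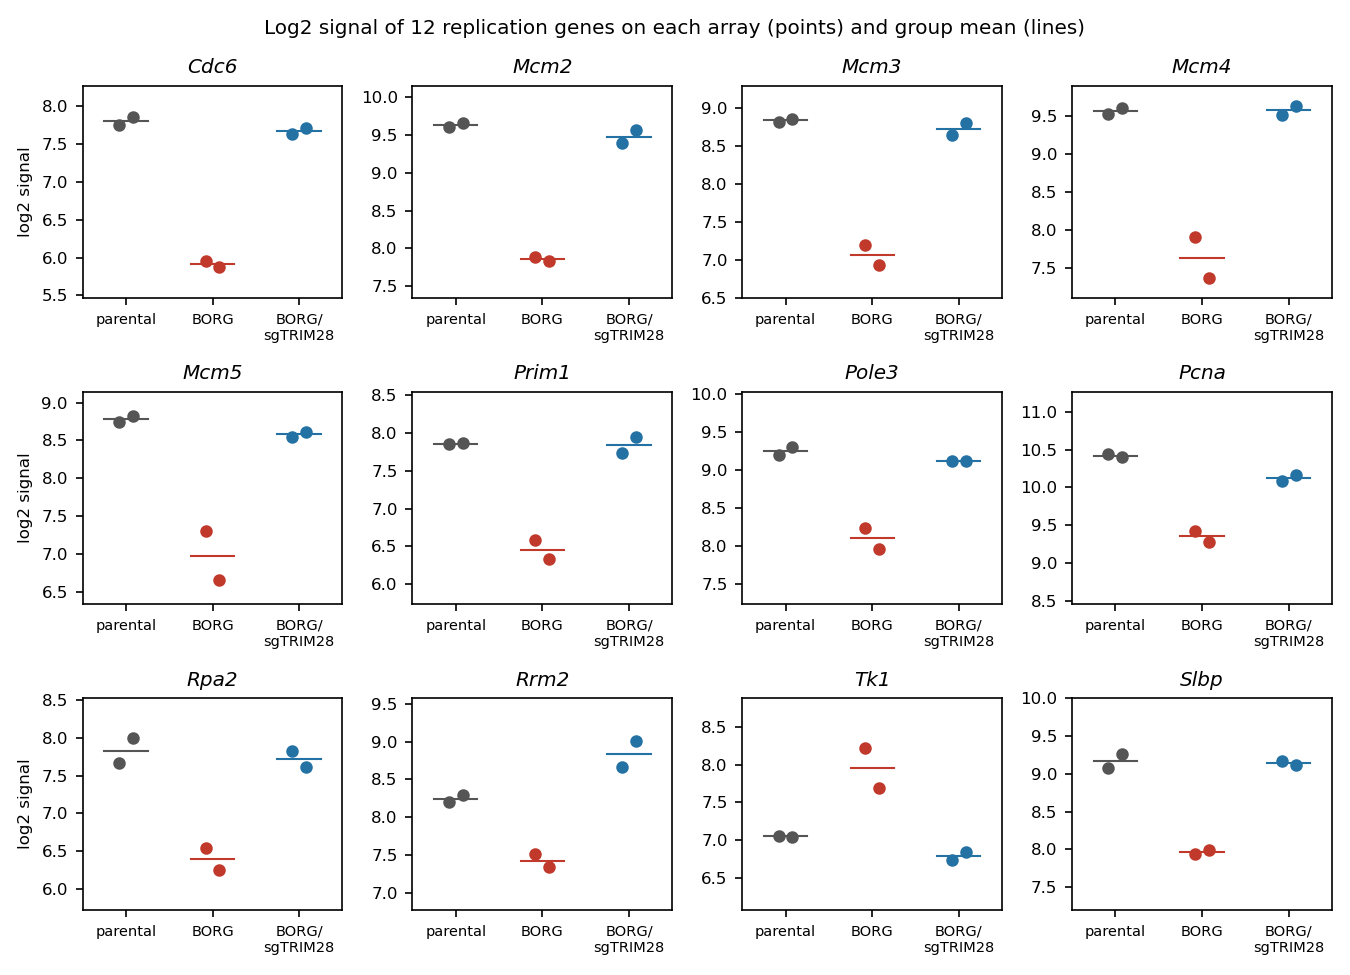
Log2 signal (y axis) of 12 replication genes on each array (points), with the mean of each group as a line, for parental, BORG and BORG/sgTRIM28 cells. Each panel spans the same range of log2 units around its own gene. For 11 of the genes the BORG points lie below all others, and for Tk1 they lie above.

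Of the 10 polymerase genes, 4 were lower in each comparison and 0 were higher, with medians of -0.51 against parental and -0.27 against BORG/sgTRIM28 cells. The shares of all clusters lower and higher were 2.98% and 4.12%, then 4.24% and 5.31%. Prim1, the catalytic subunit of primase, read 7.85 and 7.86 on parental, 6.58 and 6.33 on BORG and 7.73 and 7.95 on BORG/sgTRIM28 arrays. It was 2.64-fold lower than in parental cells, at -1.40 (SE 0.14, limma adjusted p = 0.00521), and changed by -1.39 in the other comparison. Prim2, the other primase subunit, had -0.47 and -0.20 and did not pass. Pola1, the catalytic subunit of polymerase alpha, read 7.74 and 7.77, then 6.83 and 6.83, then 7.89 and 7.79, with changes of -0.92 and -1.01 on a spread too small to see at 2 decimals within the BORG pair. Pola2, its second subunit, had -0.44 and -0.30 and did not pass.

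Polymerase epsilon copies the leading strand and polymerase delta the lagging strand. Pole3, a small histone-fold subunit of polymerase epsilon, read 9.20 and 9.30 on parental, 8.24 and 7.96 on BORG and 9.12 and 9.12 on BORG/sgTRIM28 arrays, and was lower by -1.15 and -1.02 (limma adjusted p = 0.00784 and 0.00901). Pole, the catalytic subunit, read 7.80 and 7.99, then 6.92 and 7.15, then 7.85 and 7.92, with changes of -0.86 and -0.85. A second and dimmer cluster of Pole, between 3.68 and 4.11 on all arrays, had -0.15 and did not pass, and the mean of both clusters was not called in either comparison. Pole2 had 0.25 and 0.33, neither past the threshold, with BORG arrays at 8.22 and 7.75 and parental arrays at 7.74 and 7.74. Of polymerase delta, the 3 subunits among the 54 genes did not pass in limma in either comparison, with changes against parental cells of -0.09 for Pold1, -0.54 for Pold2 and -0.20 for Pold3. For Pold2 the adjusted p was 0.0565 from limma, and all its BORG values lay below the parental ones. Of the small subunits outside the 54 genes, Pold4 of delta was higher in both comparisons, as given below, and Pole4 of epsilon had -0.71 and did not pass (limma adjusted p = 0.083).

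At the clamp, 2 of 10 genes were lower and 0 higher in each comparison, with medians of -0.53 and -0.53. All clusters gave 2.98% lower and 4.12% higher against parental cells, then 4.24% and 5.31% against BORG/sgTRIM28 cells. The fit of brighter clusters gave 10.5% and 11.2%, then 12.8% and 13.3%. Rpa2, a subunit of the replication protein A trimer that coats single-stranded DNA, read 7.66 and 8.0 on parental, 6.55 and 6.25 on BORG and 7.82 and 7.61 on BORG/sgTRIM28 arrays. It was lower by -1.43 (SE 0.17, limma adjusted p = 0.00947) and -1.31. Its partners did not follow it past the threshold, with -0.32 and -0.50 for Rpa1 and 0.25 and 0.18 for Rpa3. A second cluster of Rpa3 had the opposite sign, at -0.06 and -0.12, and one of Rpa1 had -0.01 and 0.02, opposite only in the latter comparison, and neither passed. Pcna, the sliding clamp, read 10.44 and 10.40, then 9.43 and 9.28, then 10.08 and 10.17. It was lower by -1.07 against parental cells (SE 0.11, limma adjusted p = 0.00634), 2.09-fold, and by -0.77 against BORG/sgTRIM28 cells, so the BORG/sgTRIM28 arrays lay between the other groups.

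The clamp loader was measured by 4 of its 5 genes, which did not pass in limma, with changes against parental cells of -0.59 for Rfc1, -0.45 for Rfc2, -0.57 for Rfc3 and 0.08 for Rfc5 (adjusted p from 0.0589 to 0.768). Fen1 and Lig1, which trim and join Okazaki fragments, were among the genes with the widest gaps between BORG arrays. Fen1 read 5.42 and 4.56 on the BORG arrays and between 5.65 and 6.2 on the others, a change of -1.05 against parental cells that did not pass (SE 0.29, limma adjusted p = 0.0940). A second cluster of Fen1 had a change of 0.11, of the opposite sign, with overlapping arrays. Lig1 read 7.84 and 7.83 on parental and 7.81 and 6.90 on BORG arrays, with a change of -0.48 (limma adjusted p = 0.409).

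Among the 5 genes that supply or guard nucleotides, 3 were called lower and 1 higher in BORG against parental cells, and 4 were lower and 1 higher than in BORG/sgTRIM28 cells. Beside them, 2.98% and 4.12% of all clusters were lower and higher, then 4.24% and 5.31%. Tyms, which makes thymidylate, read 8.92 and 8.93 on parental, 7.88 and 7.86 on BORG and 8.73 and 8.97 on BORG/sgTRIM28 arrays, and was lower by -1.05 and -0.98 (limma adjusted p = 0.00814 and 0.00825). Rrm1, the large subunit of ribonucleotide reductase, read 9.60 and 9.73, then 8.78 and 8.60, then 9.41 and 9.48, with changes of -0.98 and -0.76. Rrm2, its small subunit, which limits the enzyme outside S phase, read 8.20 and 8.29, then 7.51 and 7.34, then 8.67 and 9.01. The 3 groups of Rrm2 were separate, lowest in BORG and highest in BORG/sgTRIM28 cells. Its changes were -0.82 against parental cells (limma adjusted p = 0.0333) and -1.41 against BORG/sgTRIM28 cells (limma adjusted p = 0.00522). A second cluster of Rrm2, between 3.14 and 3.28 on all arrays, had -0.07, and the mean of both clusters lost the call against parental cells. Ung, a glycosylase that removes uracil from DNA, passed against BORG/sgTRIM28 cells at -0.63 but not against parental cells at -0.53 (limma adjusted p = 0.0681).

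Tk1, the cytosolic thymidine kinase that salvages thymidine, was the gene called higher in both comparisons. It read 7.06 and 7.05 on parental, 8.22 and 7.69 on BORG and 6.74 and 6.85 on BORG/sgTRIM28 arrays, with both BORG arrays above all others and 0.53 apart. It was up 0.90 against parental cells, 1.87-fold (SE 0.18, limma adjusted p = 0.0436), and 1.16 against BORG/sgTRIM28 cells, 2.24-fold higher (limma adjusted p = 0.0174). The call against parental cells was close to the threshold and was lost under quantile normalization (adjusted p = 0.051), where its change was 0.86. It was also lost under the replicate block, with only the 4 arrays compared, and without BORG replicate 1 or either parental array. Leaving out either BORG/sgTRIM28 array gave the same fit as those 4 arrays and is not a separate loss. Against BORG/sgTRIM28 cells the Tk1 call was lost without either BORG/sgTRIM28 array.

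Of the 5 genes of chromatin assembly, 3 were lower and 0 higher in each comparison, with medians of -0.70 and -0.61. For all clusters, 2.98% were lower and 4.12% higher against parental cells, then 4.24% and 5.31% against BORG/sgTRIM28 cells. Slbp, which binds the stem-loop of replication-dependent histone messages, read 9.08 and 9.26 on parental, 7.94 and 7.99 on BORG and 9.17 and 9.12 on BORG/sgTRIM28 arrays. It was 2.31-fold lower than in parental cells, at -1.21 (SE 0.12, limma adjusted p = 0.00449), and changed by -1.18 in the other comparison. Chaf1a, the large subunit of the histone chaperone CAF-1, read 7.06 and 7.07, then 6.07 and 6.11, then 6.89 and 7.12, with changes of -0.98 and -0.92. Chaf1b, its middle subunit, read 8.01 and 8.20, then 7.42 and 7.38, then 8.01 and 8.02, with changes of -0.70 and -0.61. Both genes that maintain DNA methylation at the fork were short of the threshold. Uhrf1 had -0.17 against parental cells, and Dnmt1 had -0.32 with BORG arrays at 8.69 and 7.83 on either side of the parental arrays at 8.55 and 8.60.

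Between BORG/sgTRIM28 and parental cells, 0 of the 53 genes passed in limma, where 0.121% of all clusters did. The arrays did not overlap for 24 members on the lower and 8 on the higher side, against 19.6% and 22.8% of all clusters. At an unadjusted p under 0.05 limma gave 3 genes, Gins1 and Pcna lower and Rrm2 higher, against 8.7% of all clusters, and the methods' t-test gave 9, against 9.93%. The median change was -0.07, with a range from -0.33 for Orc1 to 0.60 for Rrm2. The 95% interval of the difference stayed within 1 log2 unit of 0 for all 53 genes and spanned 0 for 50 of them. For Mcm4 it ran from -0.46 to 0.48, for Pcna from -0.57 to -0.02, for Tk1 from -0.72 to 0.19 and for Rrm2 from 0.23 to 0.97. The spread was pooled over the 3 groups, so gaps between the BORG arrays, which are not compared here, enter these intervals. For Mcm4 the gap was 0.555 in BORG, 0.077 in parental and 0.129 in BORG/sgTRIM28 cells. For genes with a wide BORG gap, the pooled standard error can be too small in the BORG comparisons. The intervals were not adjusted for the number of clusters and were 0.49 to 1.41 log2 units wide. Differences could be missed, as Rrm2 at 0.60 did not pass (limma adjusted p = 0.349). The test does not show that these groups were alike.

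A further list of 47 genes of DNA replication outside the 54, of which 42 had a cluster of their own, was read in the same way. Against parental cells 16 were lower and 2 higher (median -0.57), and against BORG/sgTRIM28 cells 17 were lower and 2 higher (median -0.57). Over all clusters 2.98% were lower and 4.12% higher against parental cells, and 4.24% and 5.31% against BORG/sgTRIM28 cells. In the fit of brighter clusters the shares were 10.5% and 11.2%, then 12.8% and 13.3%. The 2 higher genes were Pold4 and Polk in each case. Atad5, which helps to unload the sliding clamp, read 7.19 and 7.35 on parental, 5.69 and 5.14 on BORG and 7.07 and 7.14 on BORG/sgTRIM28 arrays, a change of -1.86 (limma adjusted p = 0.00607). Dtl, the adaptor of the ubiquitin ligase that destroys Cdt1 on DNA-bound clamp, read 9.11 and 9.12, then 7.51 and 7.53, then 8.83 and 9.01, a change of -1.59 (limma adjusted p = 0.00201). Ticrr (treslin), which acts in the firing of origins, changed by -1.26 with BORG arrays at 6.55 and 7.24. Lin9, a subunit of the MuvB core that regulates cell cycle genes, changed by -1.23 and the histone chaperone Nasp by -1.16. Pold4, the smallest subunit of polymerase delta, went the other way. It read 8.30 and 8.29 on parental, 10.28 and 10.17 on BORG and 8.38 and 8.40 on BORG/sgTRIM28 arrays, a change of 1.93 against parental cells, 3.81-fold higher (SE 0.11, limma adjusted p = 0.000962).

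**Figure D4:**
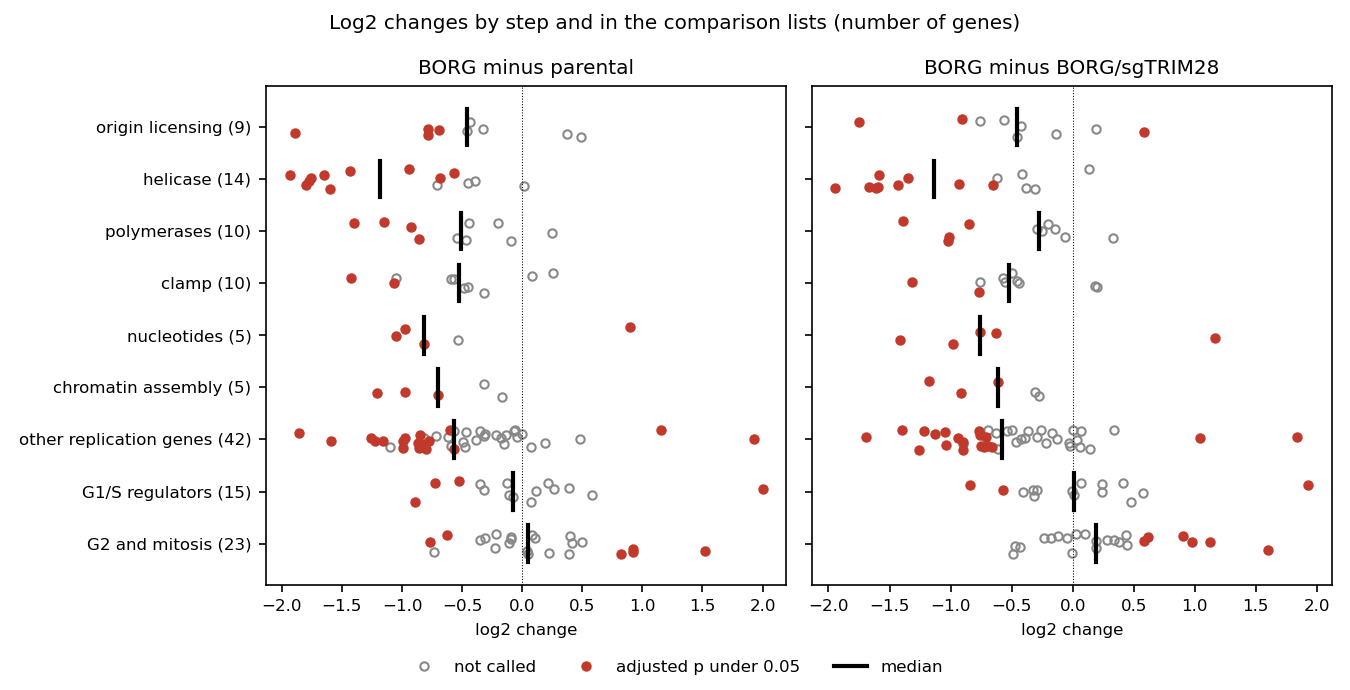
Log2 change (x axis) of each gene (points) in the 6 steps, the other replication genes, the G1/S regulators and the genes of G2 and mitosis (rows, with the number of genes), against parental cells on the left and BORG/sgTRIM28 cells on the right. Filled points passed an adjusted p of 0.05 in limma, and black bars are medians, which are below 0 in all rows of replication genes and, against parental cells, -0.08 and 0.05 in the 2 lowest rows. Vertical scatter within a row carries no value.

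Lists of neighbouring cell cycle steps were set beside these genes. Over all clusters 2.98% were lower and 4.12% higher against parental cells, and 4.24% and 5.31% against BORG/sgTRIM28 cells. In the fit of brighter clusters the shares were 10.5% and 11.2%, then 12.8% and 13.3%. Of 23 genes of G2 and mitosis, 2 were called lower and 4 higher in BORG against parental cells (median 0.05). The lower ones were Mad2l1 and Nuf2 and the higher ones Ccnb2, Kif23, Cenpe and Anln. Against BORG/sgTRIM28 cells 6 were higher, by limma, with a median of 0.19. Of 15 regulators of the passage from G1 to S, 3 were lower and 1 higher against parental cells (median -0.08), namely Skp2 at -0.89, Rbl1 at -0.72 and Cdkn1b at -0.52, and E2f8 at 2.00. The activators E2f1, E2f2 and E2f3 had changes of -0.08, -0.13 and -0.32 against parental cells that did not pass. The lists were described by counts and medians only, and a difference between them and the replication genes was not tested.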

How the data were processed

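Total RNA of 6 samples was hybridised to Affymetrix Mouse Gene 2.0 ST arrays. Per the study's methods, the authors normalized probe intensities in Affymetrix Expression Console. Transcriptome Analysis Console is named besides it in the processing notes of the submitters. The values, deposited by the authors as log2 signals per transcript cluster and array, ran from 1.92 to 13.7. How probes were summarized, the versions and the array library were not given in the sources used here, and no detection values were used. Of 41345 clusters, 23521 carried 1 gene symbol in the platform annotation, 1820 several and 16004 none. Only clusters with 1 symbol were assigned to genes, and 53 of 53 symbols were current in the RefSeq gene table of GRCm38.p6. The number of arrays limits the precision.

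The means of the 3 groups were fitted over all 6 arrays with limma 3.58.1 in R 4.3.3, with eBayes moderation (residual degrees of freedom 3, prior 3.04) and Benjamini-Hochberg adjustment over all clusters of a comparison. The model was also run on simulated data with known changes, and that outcome is not given here. With 2 arrays a group, the smallest two-sided p of an exact permutation test is 0.333, so none was run. Alternatives left out each array in turn, blocked on the replicate number, fitted only the 4 arrays compared, used a variance trend, normalized by quantiles, centred arrays on their medians, kept only clusters above the median signal or only 1 cluster for each gene, averaged the clusters of a gene, or ran the methods' t-test (two-tailed Student). Any of the 54 genes could be named. Array values were given for up to 4 genes of a step with the largest change past the adjusted threshold in either BORG comparison and for genes called against most of their step, and up to 6 called genes of the further replication list were named by their change against parental cells. Other clusters of a gene were given where sign or call differed. Other single values were chosen after they had been seen. The genes, lists and rule were chosen with earlier results of these data known. Promoters came from RefSeq.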

Additional observations from a re-analysis of the deposited data

How the results depend on the processing

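No change of a replication gene that was called reversed its sign under any alternative run. The methods' t-test gave 0 members after adjustment in both BORG comparisons, with 28 and 28 at an unadjusted p under 0.05, where 14.9% and 15.5% of all clusters were. Leaving out each array gave 6 to 24 members called between BORG and parental cells, 10 to 26 between BORG and BORG/sgTRIM28 cells and 0 between BORG/sgTRIM28 and parental cells. A fit without an array also has fewer degrees of freedom. Under the other alternatives the counts in the same order were 19 to 37, 21 to 35 and 0, highest in both BORG comparisons with 1 cluster per gene and lowest with only the 4 arrays compared. The replicate block gave 22, 23 and 0. The replicate numbers share only a number, as deviations of same-numbered arrays correlated at -0.01, -0.04 and 0.04 across clusters. Median changes of the members stayed from -0.72 to -0.56, from -0.69 to -0.56 and from -0.11 to -0.03. Calls kept under all alternatives other than the t-test numbered 6 of 27 and 10 of 26. Signal over background is unknown.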

Other observations

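Further groups within the list of other replication genes were picked after their values had been seen and are given as values only. Over all clusters 2.98% were called lower and 4.12% higher in BORG against parental cells. Of 6 genes that protect the fork or signal from it, 5 passed in limma as lower in the BORG group against parental: Timeless (-0.78), Clspn (-1.0), Topbp1 (-0.85), Wdhd1 (-0.99) and Donson (-0.80). Tipin, the binding partner of Timeless, had -0.22 and did not pass (limma adjusted p = 0.336). Clspn, the adaptor that lets the kinase ATR activate Chk1, read 6.66 and 6.88 on parental, 5.78 and 5.78 on BORG and 6.67 and 6.68 on BORG/sgTRIM28 arrays. Of 4 genes of translesion synthesis, Polk was higher at 1.16 (limma adjusted p = 0.0166), with 6.45 and 6.54 on parental, 7.86 and 7.44 on BORG and 6.5 and 6.71 on BORG/sgTRIM28 arrays, while Poli (0.48), Polh (-0.17) and Rev3l (-0.07) did not pass. The topoisomerases Top1 and Top2a, which relieve and resolve the twist of copied DNA, had -0.32 and -0.05 and did not pass. Top2a read 9.22 and 9.31 on parental, 9.17 and 9.26 on BORG and 9.07 and 9.25 on BORG/sgTRIM28 arrays, so all 3 groups overlapped.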
